A study of Homo sapiens with 6 samples.

Results

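The 71 genes described here encode mitochondrial ribosomal proteins. They are the protein-coding genes whose symbol begins with MRPL or MRPS and a digit and whose mean was at least 1 CPM (counts per 1000000 of the library's size after edgeR's TMM correction) over 6 libraries. The count tables held 164 such symbols, of which 86 were pseudogenes or noncoding and 78 were protein-coding; 17452 genes in all were tested. By the place of the protein in the mitochondrial ribosome, 48 members belonged to the large subunit and 22 to the small subunit. MRPS36, a subunit of the alpha-ketoglutarate dehydrogenase complex that keeps a ribosomal name, was counted as a member and in neither subunit. Of the ribosomal members, 41 have a bacterial homologue and 29 are specific to mitochondria.

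Poly(A)-selected RNA came from HEK-293T, a human embryonic kidney line carrying the SV40 large T antigen, grown in DMEM with 10% serum and antibiotics. The 3 wild-type (WT) libraries had received a non-targeting guide RNA, and the 3 libraries labelled C17orf80 knockout (KO1, KO2 and KO3) a guide against C17orf80. The labelled knockout line was made with CRISPR/Cas9, and 3 µg/ml puromycin served to select monoclonal cells; how many clones were used is not stated, so a difference between clones and an effect of the guide cannot be told apart. Whether the libraries came from separate cultures is not stated either, and the p-values measure only the spread between these libraries.

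The mitochondrial ribosome reads the few messages encoded by mitochondrial DNA, all for subunits of the respiratory chain and ATP synthase. Its rRNAs are transcribed inside the organelle, whereas its proteins are encoded in the nucleus, made in the cytosol and imported. Some descend from bacterial ribosomal proteins, and others were acquired during mitochondrial evolution and surround the shrunken rRNA core. C17orf80, now named MTNAP1, encodes a protein found with mitochondrial nucleoids.

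Gene counts per library ranged from 14982340 to 16278091. C17orf80 mRNA measured 25.8, 26.8 and 29.2 CPM in WT and 56.4, 42.4 and 42.0 CPM in KO1 to KO3. It was higher, not lower, in the libraries labelled knockout (log2 difference 0.78 ± 0.17 SE, edgeR adjusted p = 0.0232). The counts do not measure the protein, and whether the gene was disrupted was not tested. KO1 stood apart from the other 2 libraries of its group. It correlated with KO2 and KO3 at r = 0.932 and 0.945 across genes, against 0.987 between KO2 and KO3, and its TMM factor was 0.851 against 1.03 to 1.04 in the other 5 libraries. Genes of the mitochondrial chromosome took 11.9% of its gene counts, against 4.53% to 5.00% in the others. Among HEK-293 markers, EYA1 and NEFL fell (log2 -1.41 and -1.48, edgeR adjusted p = 0.00610 and 0.00252), POU3F2 rose (1.79, adjusted p = 6.7e-04), and PAX2 and NEFM did not pass. Of 10 markers of other cell types, PTPRC, CDH5, INS and TYR were at 0 in every library and 2 were tested: LUM rose, from 1.3 to 2.21 CPM in WT to 3.10 to 5.4 CPM in the libraries labelled knockout (adjusted p = 0.0455), and MYOD1 did not pass (adjusted p = 0.0592).

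Between WT and the libraries labelled knockout, 5 of the 71 members passed edgeR at an adjusted p of 0.05. MRPS6, MRPS14 and MRPL47 fell, and MRPL58 and MRPS7 rose. That is 2.82% of members higher, against a background of 8.64% of all tested genes, and 4.23% lower, against 6.50%. At an unadjusted p under 0.05, 8 members were above and 9 below WT. The fitted difference was above 0 for 29 members and below 0 for 42, with a median of -0.11 on the log2 scale, against 0.01 over all tested genes. The members' median was 0.05 without KO1 and -0.23 without KO2. In these bulk libraries, fewer cells of a type and less RNA per cell cannot be told apart.

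MRPS6 (ENSG00000243927, chr21:34073578-34143030, GRCh38.p14), the bacterial-type S6 protein of the small subunit, fell the most of the 5. Its level was 15.7, 15.1 and 17.8 CPM in WT and 6.58, 6.98 and 7.45 CPM in KO1 to KO3. The 3 libraries labelled knockout lay within 1 CPM of each other, with a mean of 7.005 ± 0.437 CPM (SD, n = 3) against 16.2 ± 1.39 CPM in WT. The log2 difference was -1.21 ± 0.17 SE (edgeR adjusted p = 0.00516), and MRPS6 was the 1 member called whichever library was left out. SLC5A3, a sodium/myo-inositol transporter whose span overlaps that of MRPS6, did not pass: its level was 78.6, 79.7 and 72.5 CPM in WT and 174, 80.9 and 86.9 CPM in KO1 to KO3 (log2 0.57, adjusted p = 0.224).

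MRPS14 (ENSG00000120333, chr1:175012958-175023425), the bacterial-type S14 protein near the decoding end of the small subunit, measured 61.0, 63.3 and 58.8 CPM in WT and 33.6, 39.7 and 37.2 CPM in KO1 to KO3. The groups did not overlap, and the log2 difference was -0.73 ± 0.13 SE (edgeR adjusted p = 0.0146). MRPL47 (ENSG00000136522, chr3:179588285-179604646), the L29 protein at the peptide exit of the large subunit, measured 41.7, 40.9 and 44.4 CPM in WT and 31.4, 25.5 and 29.3 CPM in KO1 to KO3. Its log2 difference was -0.56 ± 0.14 SE (edgeR adjusted p = 0.0397). ACTL6A, an actin-related subunit of chromatin remodelling complexes whose span overlaps that of MRPL47, fell by a similar log2 difference of -0.67 ± 0.14 SE (adjusted p = 0.0214). The kit was not stated to mark strand. Reads that fell in several genes were left out of the counts, so a stretch shared by these neighbours may count for neither.

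MRPL58 (ENSG00000167862, chr17:75012670-75021261), a peptidyl-tRNA hydrolase of the release factor family built into the large subunit and known also as ICT1, rose. It measured 26.9, 27.4 and 24.0 CPM in WT and 38.5, 54.6 and 48.3 CPM in KO1 to KO3, a log2 difference of 0.85 ± 0.17 SE (edgeR adjusted p = 0.0190). MRPS7 (ENSG00000125445, chr17:75261879-75266376), a bacterial-type protein of the head of the small subunit, lies 249.2 kb from it. Its level was 60.0, 64.7 and 64.6 CPM in WT and 79.4, 121 and 115 CPM in KO1 to KO3 (log2 0.74 ± 0.19 SE, edgeR adjusted p = 0.0388). In both genes KO1 was the lowest of the libraries labelled knockout and still above every WT library. MRPS7 overlaps MIF4GD, which encodes a partner of the histone mRNA binding protein, and GGA3, a Golgi sorting adaptor. MIF4GD rose (log2 1.33, edgeR adjusted p = 0.0161), and GGA3 did not pass (log2 0.27, edgeR adjusted p = 0.382). Reads in several genes were left out here too, so MRPS7 may be undercounted where these spans meet.

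**Figure D1:**
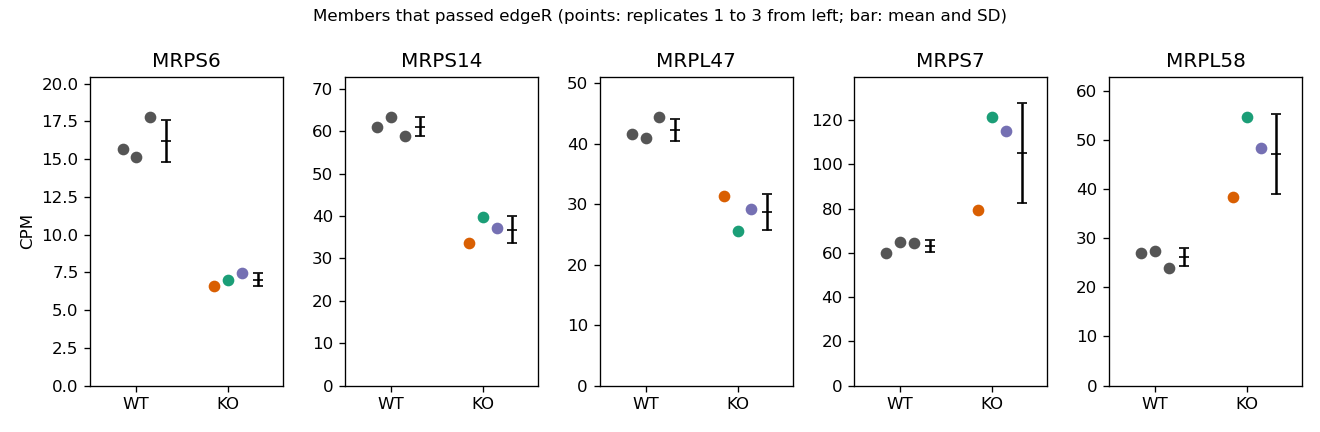
Level (CPM) of the 5 members that passed edgeR, with one point per library (replicates 1 to 3 from left to right in each group) and a bar for the mean and SD of 3 libraries. In each panel the points of WT and of the libraries labelled knockout do not overlap; MRPS6 lies between 6.58 and 7.45 CPM in the latter and between 15.1 and 17.8 CPM in WT.

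Without KO1, edgeR called 20 of 71 members higher (28.2%, background 22.3%) and 15 lower (21.1%, background 21.7%), the 5 above among them. All 3 libraries labelled knockout lay above all 3 WT libraries for 13 members (18.3%, background 23.5%) and below them for 15 (21.1%, background 24.1%). MRPS23, a mitochondria-specific protein of the small subunit, measured 56.9, 52.5 and 54.0 CPM in WT and 68.2, 83.6 and 80.01 CPM in KO1 to KO3. It missed the threshold with 6 libraries (log2 0.51 ± 0.14 SE, edgeR adjusted p = 0.0512). It passed with RLE scaling (adjusted p = 0.0464), with DESeq2 (adjusted p = 0.00572) and without KO1 (log2 0.60, edgeR adjusted p = 9.3e-07). MRPL18, a large-subunit protein of the bacterial type next to the 5S rRNA in bacteria, showed the opposite direction, with 85.5, 78.5 and 80.8 CPM in WT and 44.5, 63.2 and 58.5 CPM in KO1 to KO3 (log2 -0.56 ± 0.17 SE, edgeR adjusted p = 0.0633, and -0.41 with an adjusted p of 1.3e-04 without KO1). DESeq2 called it with 6 libraries (adjusted p = 0.0196). MRPL10, the stalk base protein, measured 71.3, 64.3 and 70.0 CPM in WT and 57.8, 94.4 and 94.7 CPM in KO1 to KO3, and passed without KO1 (log2 0.47, adjusted p = 1.5e-05). MRPL17 measured 47.3, 48.3 and 49.4 CPM in WT and 28.5, 71.9 and 63.5 CPM in KO1 to KO3, and its difference without KO1 was 0.49 (edgeR adjusted p = 3.0e-05). For these last 2 members KO1 lay below the WT range and KO2 and KO3 above it. MRPS25 measured 71.5, 75.1 and 68.8 CPM in WT and 76.2, 96.2 and 96.5 CPM in KO1 to KO3 (without KO1, log2 0.43, edgeR adjusted p = 4.0e-05).

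The libraries labelled knockout placed the same genes differently relative to WT. In KO1, 20 members lay above the range of the 3 WT libraries (28.2%, background 43.4%) and 47 below it (66.2%, background 46.2%). In KO2, 40 lay above (56.3%, background 39.7%) and 21 below (29.6%, background 39.3%). KO3 was between, with 28 above (39.4%, background 39.4%) and 32 below (45.1%, background 40.2%). The median difference from the WT mean was -0.47 in KO1, 0.08 in KO2 and -0.04 in KO3 on the log2 scale, against -0.04, 0.01 and -0.00 over all tested genes.

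KO1 also held the widest spread, from -2.56 for MRPL41 to 1.47 for MRPL19. MRPL41, a mitochondria-specific protein of the large subunit, measured 49.0, 49.5 and 44.6 CPM in WT and 7.99 CPM in KO1, but 50.5 and 38.1 CPM in KO2 and KO3. MRPL28 showed a like pattern, at 95.2, 88.0 and 91.7 CPM in WT, 22.9 CPM in KO1, and 91.0 and 69.9 CPM in KO2 and KO3. MRPL19 was 73.7, 78.9 and 87.1 CPM in WT, 221 CPM in KO1, and 97.9 and 104 CPM in KO2 and KO3. MRPL3, a core protein of the large subunit, measured 130, 130 and 132 CPM in WT and 265, 133 and 159 CPM in KO1 to KO3, with KO1 far above the rest (log2 0.50 ± 0.25 SE, edgeR adjusted p = 0.211). MRPL1 measured 17, 18 and 18.1 CPM in WT and 36.3, 21.8 and 23.1 CPM in KO1 to KO3. With 6 libraries, edgeR called none of these members (adjusted p from 0.103 for MRPL1 to 0.4999 for MRPL41), although MRPL19 passed when no filter on low counts was applied (adjusted p = 0.0413).

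The values of the large and small subunits overlapped in each library. The 48 large-subunit members had medians of -0.53, 0.13 and -0.02 in KO1, KO2 and KO3, and the 22 small-subunit members -0.38, 0.04 and -0.06, all as log2 differences from the WT mean. With 6 libraries, edgeR called 1 large-subunit member higher and 1 lower, and 1 small-subunit member higher and 2 lower. Sums over members do not cover whole subunits. Mitochondrial ribosomal proteins with other names, such as DAP3 and AURKAIP1, and the MRP genes below the minimum are left out. Summed over members, the large subunit measured 2659, 2559 and 2624 CPM in WT and 2360, 2658 and 2587 CPM in KO1 to KO3. The small subunit measured 1210, 1185 and 1182 CPM in WT and 987, 1271 and 1207 CPM in KO1 to KO3. The ratio of the sums was 2.197, 2.160 and 2.22 in WT and 2.39, 2.09 and 2.14 in KO1 to KO3, so the libraries labelled knockout lay on both sides of the WT values. Their means of 2.21 ± 0.160 and 2.19 ± 0.0304 (SD, n = 3) differed by less than the spread.

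**Figure D2:**
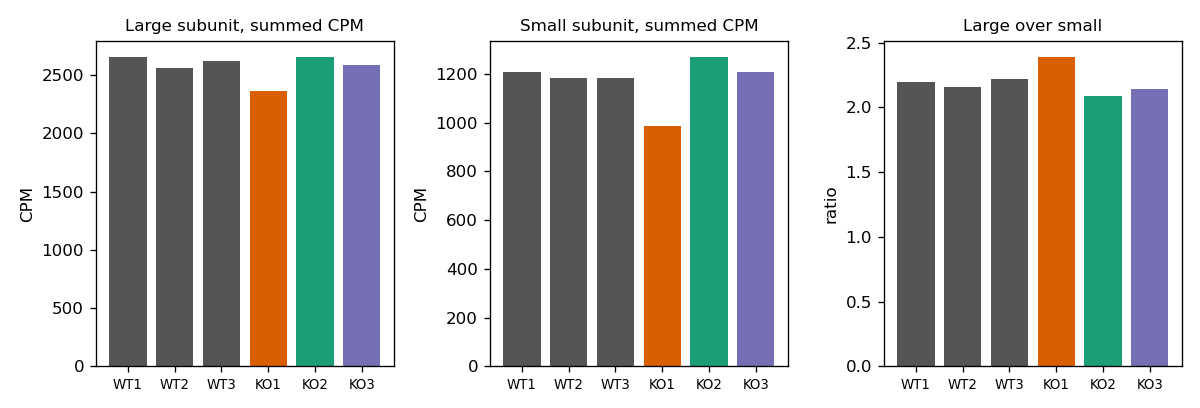
Summed CPM of the 48 large-subunit and the 22 small-subunit members in each library, and the ratio of the sums. Both sums are lowest in KO1, at 2360 and 987 CPM, and the ratio runs from 2.09 in KO2 to 2.39 in KO1 with the WT libraries between.

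Bacterial homologues and mitochondria-specific proteins gave similar medians. The 41 bacterial homologues had -0.54, 0.05 and -0.03 in KO1, KO2 and KO3, and the 29 mitochondria-specific members -0.46, 0.08 and -0.04. Of the 5 called members, 4 were bacterial homologues (1 higher, 3 lower), and MRPL58 was mitochondria-specific. The 9 mitochondria-specific members of the small subunit had a median of 0.09 in KO1, against -0.63 for its 13 bacterial homologues. These 9 ranged from -2.12 to 0.46, with 5 above and 4 below the WT range. In the large subunit the KO1 median was -0.53 for the 28 bacterial homologues and -0.50 for the 20 mitochondria-specific members. The classes leave out the 5 mitochondrial ribosomal proteins with other names. Their KO1 median was -0.78, with 1 above and 4 below the WT range. In KO2 and KO3 the medians of the 4 classes lay between -0.17 and 0.13.

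**Figure D3:**
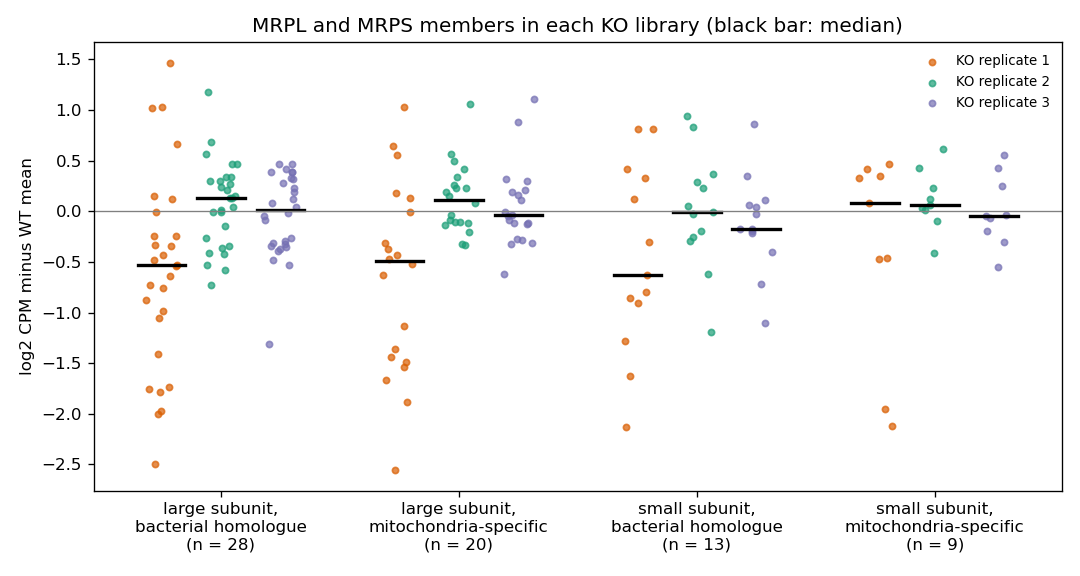
Difference of each ribosomal member from the WT mean (log2 CPM) in the 3 libraries labelled knockout, split by subunit and origin, with a black bar for the median. Points of KO1 spread from -2.56 to 1.47 and 3 of its 4 medians lie near -0.5 or lower, while the medians of KO2 and KO3 lie close to 0.

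Some MRPS symbols name proteins of the other subunit. MRPS30 and MRPS18A sit in the large subunit and were counted there. MRPS30 measured 78.2, 81.5 and 79.2 CPM in WT and 162, 95.3 and 99.5 CPM in KO1 to KO3 (log2 0.58 ± 0.22 SE, edgeR adjusted p = 0.118). MRPS18A measured 10.1, 10.6 and 10.0 CPM in WT and 7.10, 12.1 and 9.68 CPM in KO1 to KO3, on both sides of WT. MRPS18C, the S18 protein placed in the small subunit, was low, with 2.15, 1.90 and 2.82 CPM in WT and 4.07, 2.67 and 1.98 CPM in KO1 to KO3 (edgeR adjusted p = 0.527).

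Gene span moved with the KO1 values. Span here is the length of the gene on the chromosome, introns included. Across the 71 members the difference of KO1 from WT correlated with log10 span at r = 0.46, against 0.33 over 15215 tested genes with a position. The same value was -0.19 for KO2 and -0.05 for KO3. The genes share each library, and these correlations are descriptions. Among the 35 members with spans of 0.677 to 8.67 kb, 29 (82.9%) lay below the WT range in KO1 and the median was -0.87. Among the 36 longer members, 18 lay below and the median was -0.16. Of all tested genes with a position, 67.0% of the shorter and 40.5% of the longer lay below at the same division, with medians of -0.74 and 0.14. Reads in no annotated feature made up 15.9% of the KO1 reads and 8.75% to 10.8% of those of the other libraries. The part of span or of RNA quality in the KO1 values was not tested.

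**Figure D4:**
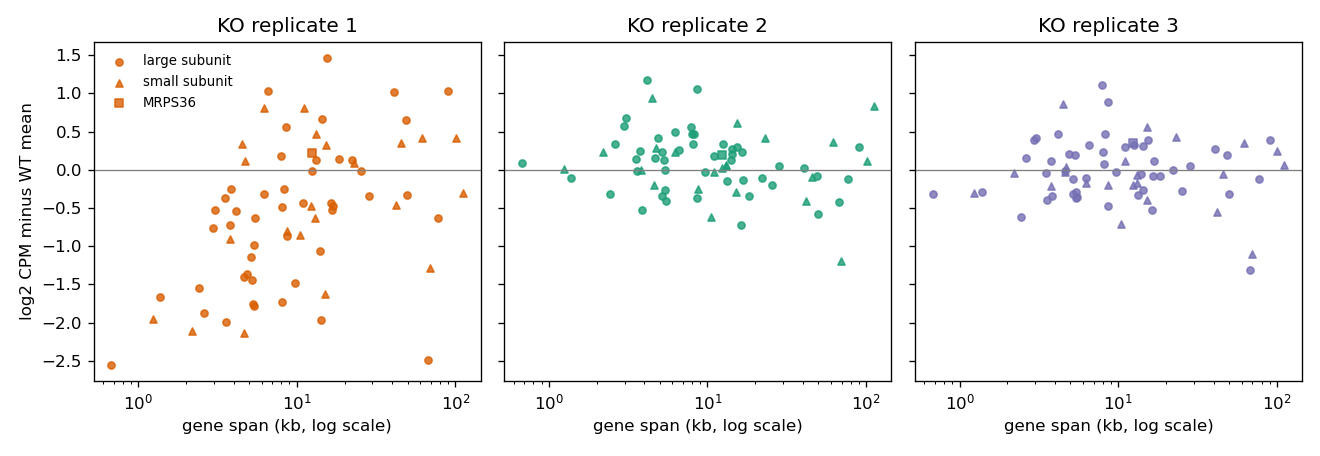
Difference of each member from the WT mean (log2 CPM) against its gene span (kb, log scale) in KO1, KO2 and KO3, with a marker shape for each subunit. Short members lie low in KO1 (median -0.87 for the 35 shorter members, -0.16 for the 36 longer ones), and r with log10 span is 0.46 in KO1, -0.19 in KO2 and -0.05 in KO3.

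The members are scattered over 21 chromosomes, and their differences ran with those of nearby genes. For each member, the other tested genes within 2.5 Mb were taken, with a median of 42 genes. Without KO1, the member's log2 difference correlated with the median of its neighbours at r = 0.62 (Spearman's rho 0.67, n = 71 members, which share the libraries and in part the neighbours). Of the 35 members called without KO1, 30 had the sign of their neighbours' median, as did 51 of all 71. The same values were not computed for all tested genes, so they are not shown to be particular to the members. With chromosome 17 left out r was 0.48 (n = 64), and with a window of 1 Mb it was 0.60.

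Chromosome 17 held 7 members, and without KO1 edgeR called 5 of them higher (MRPL10, MRPS23, MRPL58, MRPS7 and MRPL12) and 0 lower; none of the 7 was lower at an unadjusted p under 0.05, and DESeq2 with 6 libraries called 3 higher and 0 lower. Of the other 868 tested genes of that chromosome, 37.6% were higher and 13.2% lower without KO1. The members' median was 0.60, against 0.19 for those genes, and in KO1 alone the medians were -0.25 and -0.20. The neighbours of MRPL58 and MRPS7 had a median of 0.67 each, beside member values of 0.99 and 0.91. C17orf80 itself lies in that region, 1.78 Mb from MRPL58, and differed by 0.64 without KO1. MRPL12, the protein of the stalk that recruits translation factors, measured 6.37, 6.30 and 6.19 CPM in WT and 4.29, 14.4 and 8.72 CPM in KO1 to KO3. MRPL38, a mitochondria-specific protein of the large subunit, was at 0.23 beside a neighbour median of 0.68 and did not pass (edgeR adjusted p = 0.533 without KO1).

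The 3 members that fell lay further below 0 than the medians of their neighbours. MRPS6 measured -1.16 without KO1 where its 40 neighbours had a median of -0.25, and MRPS14 -0.66 where its 16 neighbours had -0.13. MRPL47, at -0.62, lay nearer to its 18 neighbours at -0.37. On chromosome 1, 6 of 8 members were called lower without KO1 and 1 higher, with a median of -0.25 against -0.26 for the other 1567 tested genes there, of which 45.0% were lower and 17.9% higher. Among these, MRPS21 measured 91.6, 98.7 and 89.4 CPM in WT and 30.1, 76.1 and 70.7 CPM in KO1 to KO3 (without KO1, log2 -0.34, edgeR adjusted p = 9.0e-04). MRPL37, a mitochondria-specific protein of the large subunit, measured 360, 337 and 345 CPM in WT and 345, 302 and 286 CPM in KO1 to KO3 (without KO1, log2 -0.23, edgeR adjusted p = 0.00279). MRPL57 on chromosome 13 measured 38.1, 33.0 and 39.0 CPM in WT and 12.5, 29.3 and 23.7 CPM in KO1 to KO3. Its difference of -0.46 without KO1 (edgeR adjusted p = 0.00123) stood beside -0.89 for its neighbours. MRPL46 on chromosome 15, which faces MRPS11 across a shared promoter region, measured 3.06, 3.50 and 2.82 CPM in WT and 3.55, 4.67 and 6.85 CPM in KO1 to KO3 (without KO1, log2 0.89, edgeR adjusted p = 0.00486), while its neighbours had a median of 0.03. The part of the region in any member's difference was not tested.

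**Figure D5:**
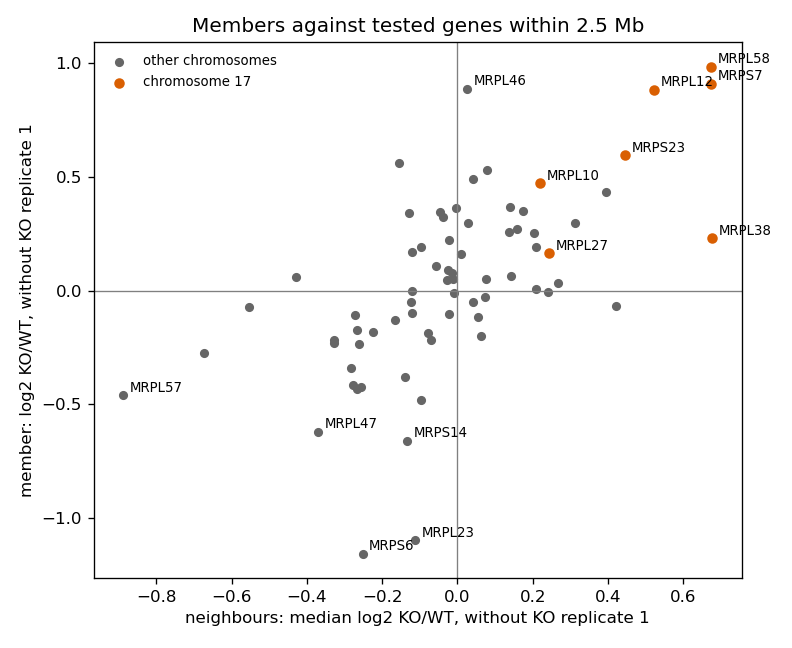
Log2 difference of each of the 71 members without KO1 (vertical axis) against the median of the tested genes within 2.5 Mb (horizontal axis), with the 7 members of chromosome 17 in orange. MRPL58 and MRPS7 lie at the upper right (0.99 and 0.91 beside 0.67), and MRPS6 at -1.16 lies far below its neighbours at -0.25.

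Promoters of the members were read from RefSeq (GRCh38.p14), from 250 bases before to 50 after the start, for the 63 of 71 members with an entry. On both strands, CCGGAAG, a core bound by ETS-family factors such as GABP, was present in 27 (42.9%), against 10.7% of all 27305 promoters and 18.1% of those of tested genes. AAGATGG, a core bound by YY1, was present in 19 (30.2%), against 6.06% and 7.12%. The NRF1 palindrome, GCGCA and GCGC separated by any base, was present in 7 (11.1%), against 6.28% and 11.4%. Both the ETS and the YY1 letters stood in 8 members (12.7%), against 0.872% of all promoters. For the pair, the share among promoters of tested genes, which was the higher background for each single core, was not computed. The ETS core ends in the letters with which the YY1 core begins, but in 0 of these 8 members did the matches overlap. The median log2 difference of members with the ETS letters was -0.25 with 6 libraries and 0.01 without KO1, against -0.11 and 0.05 for those lacking them. For the YY1 letters the values were -0.06 and 0.07 against -0.20 and -0.00, and for NRF1 -0.08 and 0.05 against -0.17 and 0.02. Fixed letters are a description and not a site.

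The 100 bases before the start of MRPS6, MRPS14 and MRPL58 are shown because these genes moved in opposite directions, with the ETS letters in capitals. MRPL58 holds the ETS letters just before its start, and its stretch and those of MRPS6 and MRPS14 hold neither YY1 nor NRF1 letters. A further ETS match of MRPL58 lies upstream of the stretch shown. MRPL47 and MRPL20, a large-subunit protein, hold both cores, and 19-base windows around them are shown with the core, or its reverse complement, in capitals. MRPL20 holds 2 ETS matches, and only the match nearer its start is shown. The first 3 are chr21:34073478-34073577 on the plus strand, chr1:175023426-175023525 on the minus strand and chr17:75012570-75012669 on the plus strand.
MRPS6: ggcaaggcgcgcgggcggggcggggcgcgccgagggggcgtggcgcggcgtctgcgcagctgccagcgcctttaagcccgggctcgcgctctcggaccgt
MRPS14: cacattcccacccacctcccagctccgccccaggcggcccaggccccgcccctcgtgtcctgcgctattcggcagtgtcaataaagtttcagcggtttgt
MRPL58: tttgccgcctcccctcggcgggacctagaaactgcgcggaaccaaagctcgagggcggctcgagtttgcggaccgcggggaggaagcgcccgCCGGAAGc
MRPL47, ETS, chr3:179604665-179604683, minus strand: gagacgCCGGAAGtgacgc
MRPL47, YY1, chr3:179604717-179604735, minus strand: atgtggCCATCTTaagtga
MRPL20, ETS, chr1:1407302-1407320, minus strand: gctgacCCGGAAGcgctcg
MRPL20, YY1, chr1:1407266-1407284, minus strand: ccgggcAAGATGGcagcgg

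MRPL47 fell and MRPL58 rose by edgeR, and both promoters hold the ETS letters. MRPL20, with both cores, measured 57.1, 51.4 and 53.0 CPM in WT and 27.1, 44.7 and 43.8 CPM in KO1 to KO3, and was called lower without KO1 (log2 -0.28, edgeR adjusted p = 0.0115). In 25 of the 63 members with a promoter entry another gene started on the opposite strand within 1000 bases, as MRPL46 and MRPS11 do. The share over all promoters was not computed.

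With 6 libraries, edgeR called few members of other lists of the translation machinery, beside 8.64% of all tested genes higher and 6.50% lower. Without KO1 it called more, beside 22.3% of all tested genes higher and 21.7% lower. DESeq2 with 6 libraries called 2340 of 17452 genes higher and 1866 lower. Of 5 mitochondrial ribosomal proteins with other names, edgeR, DESeq2 and limma-voom called 0 with 6 libraries (1 lower at an unadjusted p under 0.05); AURKAIP1 measured 109, 98.2 and 99.4 CPM in WT and 14.6, 86.4 and 62.1 CPM in KO1 to KO3. Without KO1, 2 of these 5 were lower, DAP3 (log2 -0.32) and AURKAIP1 (-0.45). Of 27 tested assembly factors of the mitochondrial ribosome, edgeR called 0 with 6 libraries (at an unadjusted p under 0.05, 2 higher and 3 lower; by DESeq2, 1 higher), and without KO1 6 were higher and 4 lower. Of 15 translation factors and regulators, edgeR called 0 (2 higher at an unadjusted p under 0.05, and the same count by DESeq2), and without KO1 3 were higher and 1 lower. Among 76 cytosolic ribosomal proteins 1 was higher (RPS3A) and 3 were lower (RPS20, RPL5 and RPL21), with 6 lower by DESeq2; without KO1, 18 were higher and 18 lower. Among 74 nuclear respiratory chain subunits 0 were higher (3 at an unadjusted p under 0.05, and 3 by DESeq2) and 4 lower (NDUFA11, NDUFB5, SDHB and ATP5PB; 9 by DESeq2), and without KO1 10 were higher and 15 lower. The medians of KO1 were -0.78, -0.43, 0.25, -0.85 and -0.74 for the 5 lists in this order.

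The rRNAs that these proteins bind were also counted, although they carry only short poly(A) tails and poly(A) selection recovers them in part. The large-subunit rRNA MT-RNR2 measured 2419, 2432 and 2424 CPM in WT and 16222, 3076 and 3344 CPM in KO1 to KO3. MT-RNR1 of the small subunit measured 436, 451 and 459 CPM in WT and 2422, 627 and 684 CPM in KO1 to KO3. With 6 libraries neither passed edgeR (adjusted p = 0.118 and 0.0922). Without KO1 both passed, with log2 differences of 0.41 for MT-RNR2 (edgeR adjusted p = 4.5e-08) and 0.55 for MT-RNR1 (adjusted p = 2.1e-08). The members together took 0.388% to 0.398% of gene counts in WT and 0.285%, 0.406% and 0.393% in KO1 to KO3.

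The other 7 protein-coding MRP genes lay below the minimum. MRPL2 came closest, at a mean of 0.723 CPM, and MRPS28 was the member nearest above it, at 1.16 CPM, with 0.910, 0.891 and 1.35 CPM in WT and 0.814, 1.94 and 1.08 CPM in KO1 to KO3. MRPL45 and MRPS24 averaged 0.495 and 0.370 CPM, and MRPS18B and MRPS5 had 4 counts or fewer over the 6 libraries. MRPS12 and MRPL53 had 0 counts in every library, which allows a level of up to 0.0315 CPM over the 6 libraries (3 counts, counting error only). MRPL2 overlaps KLC4, and MRPS24 overlaps a readthrough gene, URGCP-MRPS24. The low members MRPS28 and MRPL23 also overlap other genes, TPD52-MRPS28 for the former and MRPL23-AS1 and H19 among others for the latter. Among members MRPL23 was low and uneven, at 4.10, 1.25 and 1.16 CPM in WT and 0.222, 1.34 and 0.661 CPM in KO1 to KO3 (log2 -1.51 ± 0.73 SE, edgeR adjusted p = 0.191, and -0.69 without WT replicate 1). Reads that fell in more than 1 gene made up 9.74% to 12.5% of all tallied reads, those in no gene included, and are left out of all values here. The 78 MRP pseudogenes summed to 5.45 CPM, against 3760 CPM for the members. MRPS27 and MRPL42, mitochondria-specific proteins, measured 138, 136 and 128 CPM and 146, 134 and 143 CPM in WT, and 179, 146 and 159 CPM and 222, 133 and 161 CPM in KO1 to KO3.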

How the data were processed

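The authors deposited raw counts for each gene in each library, with no normalisation. Per the submitters' processing notes, HISAT2 2.2.1, HTSeq 0.12.4, SAMtools 1.3.1, FastQC 0.11.9, bedtools 2.30.0, DESeq2 and the GRCh38 build were used; counting options and strand settings were not given in the sources used here. Reads outside genes or in several genes stayed out of library sizes and tests. The deposited coverage tracks of the mitochondrial chromosome were not used.

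All genes kept by filterByExpr were fitted with edgeR 4.0.16 (R 4.3.3; TMM scaling, quasi-likelihood test, group as the only term), with Benjamini-Hochberg adjustment over all genes tested. Errors of fitted log2 differences are standard errors, always labelled knockout minus WT. Single-library differences used log2 CPM with a prior count of 2. Symbols were mapped from Ensembl identifiers. Positions and biotypes came from RefSeq GRCh38.p14, and 87.2% of tested genes had a position. Subunit and origin follow the uniform ribosomal protein names. Members named are those called, the largest uncalled changes, the highest and lowest levels, the smallest p without KO1, and those whose place differs from their name; MRPL20, MRPL38 and single genes of the other lists were named after their values were seen. The members and lists were chosen with earlier results of these data known. The fit was tested on simulated data. Alternatives were DESeq2 1.42.0, limma-voom (limma 3.58.1), other scaling, no filter, the replicate number as a block and leaving out 1 library in turn. A chi-square comparison of counts found no pair of duplicate libraries. Values of some single list members are left out of the text.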

Additional observations from a re-analysis of the deposited data

How the results depend on the processing

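The counts of 2 members higher and 3 lower became 3 and 3 with RLE scaling, 2 and 3 with upper quartile scaling or limma-voom, 3 and 6 with DESeq2, and 3 and 2 with no filter on low counts, where MRPL47 no longer passed (log2 -0.61, adjusted p = 0.0536) and MRPL19 did. Among all 17452 tested genes, the main fit called 1507 higher and 1134 lower. RLE scaling gave 1512 and 1112, upper quartile scaling 1610 and 1074, limma-voom 1403 and 1235, and DESeq2 2340 and 1866. With no filter, 1888 of 35856 genes were higher and 1556 lower. Leaving out 1 library gave 0 to 20 members higher and 1 to 15 lower. Without KO1 they were 20 and 15, without KO2 1 and 2, and without KO3 or any 1 WT library 0 and 1, the remaining call being MRPS6; the cause was not tested. Over the 18102 to 18268 genes then tested, calls were 4048 and 3927 without KO1, 1636 and 1070 without KO2, and 776 and 397 without KO3. Without 1 WT library, 401 to 426 genes were higher and 243 to 246 lower. Where members lost their calls, the log2 differences were -0.61 to -0.48 for MRPL47, 0.79 to 0.88 for MRPL58, -0.76 to -0.71 for MRPS14 and 0.63 to 0.75 for MRPS7. Deviations of same-numbered libraries from their group means correlated at -0.06, -0.03 and 0.00. The mean of the libraries labelled knockout includes KO1, which stood apart, so these values cannot decide whether the numbers pair the samples. With a replicate block 0 members were higher and 1 lower, and over all tested genes 610 were higher and 359 lower. The median over all members was -0.11 and ranged from -0.235 to 0.0486 with a library left out, and that of the large subunit was -0.129 and ranged from -0.258 to 0.0582. The median log2 difference of the bacterial homologues was -0.19 and ranged from -0.293 to 0.0486 with a library left out, the latter without KO1; that of the small subunit was -0.0588 and ranged from -0.229 to -0.0210, and became 0.08 when subunits were taken from the symbols. The log2 difference of the large over small ratio was 0.01 with sums and 0.18 with medians of members. Over all 71 members the sign turned for 13 without KO1 (2 of them then called higher, MRPL54 and MRPL55), for 6 without KO2, for 2 without WT replicate 2 and for 1 each without KO3 and with no filter. Among members named by the rule, signs turned for MRPS18A without KO1 (0.0923, range -0.282 to 0.0923 with a library left out) and, without KO2, for MRPL17 (-0.0643, range -0.0643 to 0.493) and MRPS28 (-0.135, range -0.135 to 0.529). With a minimum of 5 CPM, 66 members were left. The neighbour window of 1 Mb and the removal of chromosome 17 were chosen after seeing the data.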
